A study of Mus musculus with 4 samples.

Results

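Interferons switch on a shared program of genes through JAK kinases and transcription factors, among them STAT2 and IRF9, that act at DNA motifs called interferon-stimulated response elements and gamma-activated sequences. The genes followed here belong to several arms of that program. Ifi203, Ifi204 and Ifi205 are IFI200 genes, a mouse family on chromosome 1 whose proteins bind nucleic acids through HIN domains and mostly carry a pyrin domain. Ifi35, Ifi44 and Ifi47 are interferon-inducible genes of unrelated families, Parp9, Parp12 and Parp14 encode ADP-ribosyltransferase family members, and Dtx3l encodes the ubiquitin ligase that pairs with PARP9.

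These 10 genes were found on the array by gene name among the probes that are not controls. They were chosen on measured values of the same comparison that is described below, the difference between the genotypes, so their differences are given as a description and carry no test. Of the 10 genes, 9 had a probe, out of 31895 gene names on the array, and they had 13 probes between them. Ifi203 had 4 probes, Dtx3l had 2, and the other 7 genes had 1 each. No probe carried the name Ifi205. A probe named Mnda lists an Ifi205 transcript together with a transcript of Ifi211, the current name of Mnda, and so could not be assigned to Ifi205.

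RNA came from tumour-derived breast cancer cells of MMTV-Neu mice, in which the mouse mammary tumour virus promoter drives Neu, the rodent Her2, mostly in mammary epithelium. The cells were labelled either Pak1 -/-, a knockout of the gene for the p21-activated kinase PAK1, or Pak1 +/+, and the study asked how the expression profiles of these Her2-positive cells differ. Each genotype had 2 arrays, from cells of 2 tumours per group according to the series design, and each array carried 1 sample labelled with Cy3. All cells were grown in low calcium medium with horse serum, deprived of serum for 3 h and then given EGF for 15 min, so no unstimulated sample is part of the comparison. The ages and strain of the mice are not given in the labels. The 4 arrays shared 1 slide, where those of a genotype lay side by side, and place on the slide cannot be told apart from genotype. In bulk RNA, fewer cells of a type and less RNA per cell cannot be told apart either.

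The Pak1 probe at mm9 chr7:105060220-105060279 gave normalised log2 values of 12.21 and 12.25 for Pak1 -/- and of 12.04 and 12.04 for Pak1 +/+. The difference was 0.19 ± 0.07 (SE; limma adjusted p = 0.070), so Pak1 signal was not lower under the knockout label; under cyclic loess the difference was 0.27 (adjusted p = 0.027). The labels do not say which part of the gene was deleted, so whether this probe can check the label is not known, and the text writes of the arrays labelled Pak1 -/-. Erbb2, the mouse Neu gene, differed by -0.31 ± 0.07 (adjusted p = 0.020), and its adjusted p was 0.066 without Pak1 -/- replicate 1, 0.11 without Pak1 +/+ replicate 1 and 0.079 without Pak1 +/+ replicate 2. All 6 mammary epithelial markers were above background on every array and 5 of them rose, Krt14 the furthest at 2.83, beside 22.8% of all genes tested. Epcam was lower at an unadjusted p under 0.05 alone (-0.23, adjusted p = 0.058). Of 13 leukocyte markers 9 were tested, none rose and 4 fell, beside 28.2% of all genes lower (Ptprc read 7.15 and 7.14 against 7.59 and 7.60). At an unadjusted limma p under 0.05, 1 leukocyte marker rose. Lyz2, Tyrobp and Laptm5 did not clear background on any of the arrays. The summed leukocyte signal ran from 53312 to 75997 under the knockout label and from 44987 to 49523 in Pak1 +/+, most of it from 1 Itgam probe. That probe had means of 15.79 under the knockout label and 15.30 in Pak1 +/+. The other Itgam probes were far dimmer, at 7.56 against 7.76 and 7.94 against 7.37. The Itgam probes thus disagree in level, and what the sum reflects was not tested. Of the fibroblast markers 1 of 3 tested rose, and of the endothelial markers 0 of 3 at their brightest probes (also 0 at an unadjusted p under 0.05). A second, dim Kdr probe, above background on the 2 knockout-labelled arrays alone, was called higher, at 8.05 and 7.92 against 6.61 and 6.63. Col3a1, Dcn and Tek were at background throughout. The part of the markers that moved in the results below was not tested.

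RefSeq promoter sequences (GRCm38.p6, 250 bases before to 50 after a transcript start) were found for 7 of the 10 genes, in 8 entries. There was no entry for Ifi204, Parp9 or Parp14. Each promoter was searched on both strands for GAAANNGAA, the core of an interferon-stimulated response element, and for TTCNNNGAA, the core of a gamma-activated sequence, which reads the same on both strands. The first core stood in 8.56% of all 32851 promoters and the second in 8.30%. Counted by gene, with a match in any entry, the shares were 9.76% and 9.55% of 27025 genes. Ifi203, Ifi205 and Ifi44 held the first core and Ifi35 held the second, and in these promoters no match of one overlapped a match of the other. A match is a description of letters and does not show a binding site.

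The IFI200 genes are shown first because the stretch around the core is alike in the 4 windows below. Capitals mark GAAANNGAA, with 14 bases on each side, 5′ to 3′ on the strand of the gene. Ifi203 lies at chr1:173942505-173942541 and Ifi205 at chr1:174031867-174031903, both on the minus strand. Ifi211, at chr1:173913061-173913097 on the minus strand, and Ifi208, at chr1:173673593-173673629 on the plus strand, are family genes outside the list that could be measured, and these windows were picked after the matches were seen.
Ifi203: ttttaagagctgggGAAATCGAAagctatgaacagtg
Ifi205: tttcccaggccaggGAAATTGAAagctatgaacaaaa
Ifi211: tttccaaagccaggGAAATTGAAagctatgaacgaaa
Ifi208: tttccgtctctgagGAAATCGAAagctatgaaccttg

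The Ifi203 and Ifi205 windows were identical at 26 of 37 bases, Ifi205 and Ifi211 at 34, and Ifi203 and Ifi208 at 28. The core started 35 bases before the start in Ifi203 and 134 bases before it in Ifi205, counted from the start given in the table. Ifi205 held a second match on the opposite strand, 24 bases after that start. Of the 13 genes of the locus 12 had a promoter entry and 9 held the core on their own strand, beside 9.76% of all genes with it on either strand. Aim2, Ifi209 and Ifi202b had no match in their entries.

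Whole promoters are given for Ifi203, for Ifi44, which had the widest difference, for Ifi35, with the narrowest, and for Dtx3l, whose neighbours Parp9 and Parp14 were also higher. Capitals mark either core. The Ifi203 entry (chr1:173942443-173942742, minus strand) is the one of its 2 that holds a match. Ifi44 (chr3:151749861-151750160, minus strand) holds the response element core on the opposite strand, Ifi35 (chr11:101448162-101448461, plus strand) holds the gamma-activated core, and Dtx3l (chr16:35938978-35939277, minus strand) holds neither and has no capitals. The Ifi47 and Parp12 promoters had no match either, and in all of these no match says only that these letters are not in this window.
Ifi203: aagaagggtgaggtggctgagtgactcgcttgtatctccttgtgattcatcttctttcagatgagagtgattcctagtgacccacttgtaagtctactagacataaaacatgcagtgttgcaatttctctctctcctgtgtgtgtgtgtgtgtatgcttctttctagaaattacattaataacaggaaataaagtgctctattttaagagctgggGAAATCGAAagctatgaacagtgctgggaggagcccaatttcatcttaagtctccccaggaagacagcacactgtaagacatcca
Ifi44: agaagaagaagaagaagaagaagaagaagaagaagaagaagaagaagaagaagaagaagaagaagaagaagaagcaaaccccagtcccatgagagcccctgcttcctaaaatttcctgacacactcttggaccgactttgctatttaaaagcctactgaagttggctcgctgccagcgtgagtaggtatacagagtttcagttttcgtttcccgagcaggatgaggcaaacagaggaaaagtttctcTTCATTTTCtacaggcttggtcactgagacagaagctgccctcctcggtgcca
Ifi35: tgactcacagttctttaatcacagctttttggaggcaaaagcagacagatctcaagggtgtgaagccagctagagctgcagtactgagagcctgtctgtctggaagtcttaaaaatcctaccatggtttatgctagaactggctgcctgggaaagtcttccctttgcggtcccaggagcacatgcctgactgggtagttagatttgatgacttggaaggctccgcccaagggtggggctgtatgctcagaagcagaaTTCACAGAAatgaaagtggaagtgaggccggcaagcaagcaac
Dtx3l: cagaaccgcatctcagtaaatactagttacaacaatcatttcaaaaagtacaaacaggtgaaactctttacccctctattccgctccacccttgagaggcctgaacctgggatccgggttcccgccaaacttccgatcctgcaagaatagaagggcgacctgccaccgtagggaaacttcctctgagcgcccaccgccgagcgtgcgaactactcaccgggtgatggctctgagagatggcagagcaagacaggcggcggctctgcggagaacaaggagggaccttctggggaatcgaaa

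All 13 probes read higher on both arrays labelled Pak1 -/- than on either Pak1 +/+ array. The same held for 34.7% of 27215 probes. All 13 differed by at least 1 on the log2 scale, which is a 2-fold change, against 7.01% of 27229 probes tested. Over the array, 23.3% of the probes tested passed in the higher direction, and no such count is given for the chosen probes. These counts follow from how the genes were chosen. Over the 9 genes, each taken at its brightest probe, the median difference was 3.02 on the log2 scale, against -0.05 over all genes tested. All 13 probes passed the filter on dim probes, 12 of them were above background on all 4 arrays, and none was saturated.

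**Figure D1:**
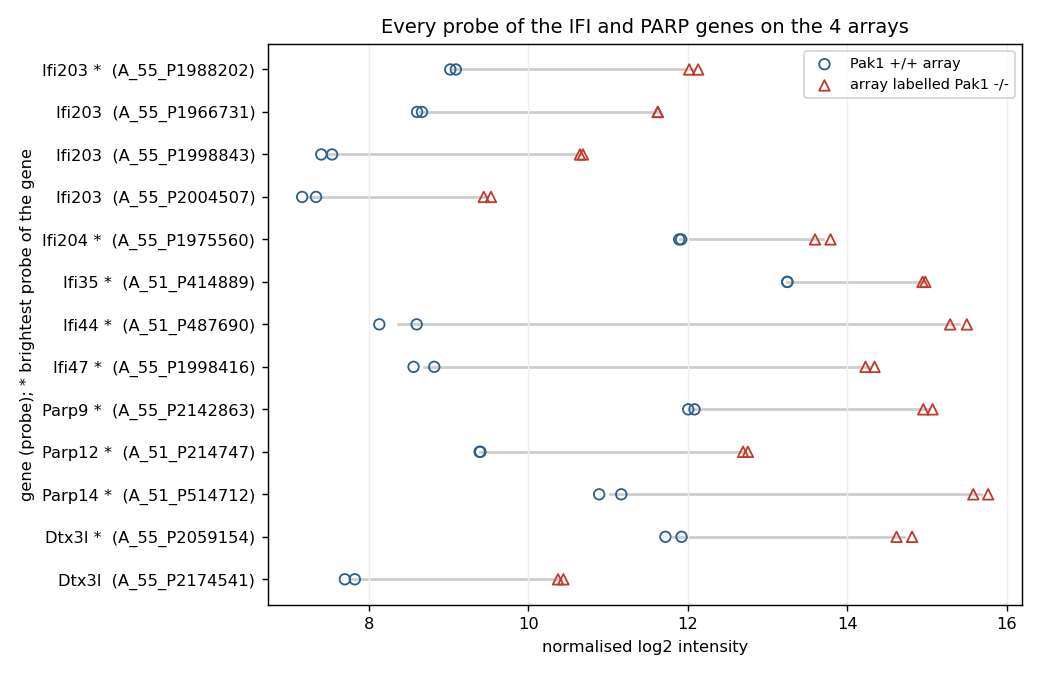
Normalised log2 intensity of every probe of the 9 measured genes, with triangles for the 2 arrays labelled Pak1 -/-, circles for the 2 Pak1 +/+ arrays and grey lines between the group means. In each of the 13 rows both triangles lie to the right of both circles, and the shortest distance between the groups is 1.68.

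Ifi203 encodes an IFI200 protein with a HIN domain. Its brightest probe (mm9 chr1:175850536-175850595) read 12.13 and 12.02 under the knockout label and 9.02 and 9.09 in Pak1 +/+. Both knockout-labelled arrays were higher and the groups did not overlap. The group means of 12.07 ± 0.08 and 9.06 ± 0.05 (SD, n = 2) differed by 3.02 on the log2 scale, 8.10-fold. The other Ifi203 probes lay along the same gene. A_55_P1966731 read 11.62 and 11.63 against 8.67 and 8.60, a difference of 2.99. A_55_P1998843 read 10.69 and 10.65 against 7.40 and 7.54, a difference of 3.20. The last probe, A_55_P2004507, was the dimmest and read 9.44 and 9.53 against 7.34 and 7.16, and it was not well above background on the second Pak1 +/+ array. Its difference of 2.24 was the smallest of the 4 probes, and without the offset of 50 that the background correction adds it became 2.71, while that of the brightest probe became 3.14.

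Ifi204, which encodes p204, an IFI200 protein of the nucleus and cytoplasm that takes part in DNA sensing, had 1 probe at mm9 chr1:175677647-175677706. It read 13.79 and 13.60 under the knockout label and 11.92 and 11.89 in Pak1 +/+. The groups did not overlap, and the closest arrays of the 2 groups were 1.68 apart. The means of 13.69 ± 0.14 and 11.91 ± 0.02 (SD, n = 2) differed by 1.79, or 3.46-fold, below each of the 4 Ifi203 probes. The IFI200 genes are close paralogues, and whether each probe reads 1 paralogue was not tested.

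Along the locus, 5 of the 13 IFI200 genes could be measured, 4 had probes that were too dim to test (Aim2, Ifi214, Ifi209 and Mndal), and 4 had no probe by name (Ifi206, Ifi213, Ifi207 and Ifi205). Outside the chosen genes, 2 of the 3 measured genes rose and none fell, with 22.8% of 22013 genes called higher and 28.2% called lower over the array. Ifi202b, a family member without a pyrin domain, read 13.42 and 13.51 against 11.95 and 11.85 and rose by 1.57 ± 0.08 (limma adjusted p = 0.00033). Its second probe gave 1.73. Ifi208, an IFI200 gene, read 12.38 and 12.36 against 12.02 and 12.07 and rose by only 0.33 ± 0.07 (limma adjusted p = 0.016). Its call was lost when Pak1 -/- replicate 1 (adjusted p = 0.055), Pak1 +/+ replicate 1 (0.094) or Pak1 +/+ replicate 2 (0.068) was left out, and the count of family genes that rose then went from 2 to 1. Ifi211 read 7.84 and 7.84 against 8.02 and 7.96, a difference of -0.15 ± 0.07 that did not pass (limma adjusted p = 0.14). Its probe is the one named Mnda that also lists an Ifi205 transcript, so the value may not be of Ifi211 alone. Measured genes next to each other in the locus thus ran from -0.15 for the probe given to Ifi211 to 3.02 for Ifi203. The promoter entries of Ifi203, Ifi208 and Ifi211 held the response element core, and that of Ifi202b did not.

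**Figure D2:**
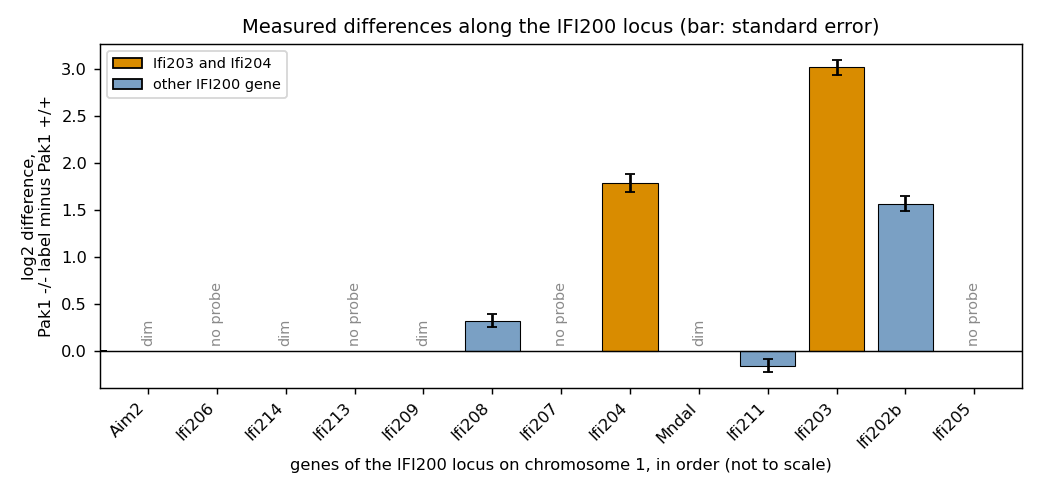
Log2 difference between the arrays labelled Pak1 -/- and Pak1 +/+ for the brightest probe of each IFI200 gene in chromosomal order, with standard errors; orange bars are Ifi203 and Ifi204, blue bars other genes of the family, and grey words mark genes too dim to test or without a probe. Ifi203 stands at 3.02, Ifi204 at 1.79, Ifi202b at 1.57, Ifi208 at 0.33 and Ifi211 at -0.15. The Ifi211 probe also lists an Ifi205 transcript.

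Ifi44, an interferon-induced gene whose cytoplasmic product has a GTP-binding motif, had the widest difference of the 9 genes. Its probe at mm9 chr3:151394035-151394094 read 15.50 and 15.29 under the knockout label and 8.13 and 8.60 in Pak1 +/+. The groups were 6.69 apart at their closest. The mean spot intensities before background correction were 43689 and 41537 against 275 and 367, and the normalised means of 15.40 ± 0.15 and 8.37 ± 0.33 (SD, n = 2) differed by 7.03, or 131-fold. The distance of 0.47 between the 2 Pak1 +/+ arrays was the largest between replicates of any member probe. The neighbouring paralogue Ifi44l was not above background on any array, at 6.34 and 6.26 against 6.50 and 6.25, and was not tested. In the same stretch of chromosome 3, Adgrl2 was the only neighbour that could be tested among the 3 nearest genes on each side, and it rose by 0.70 (limma adjusted p = 0.0020).

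Ifi47 encodes an immunity-related GTPase that acts on vacuoles holding intracellular pathogens. Its probe (mm9 chr11:48910402-48910461) read 14.34 and 14.23 under the knockout label and 8.56 and 8.82 in Pak1 +/+. Both Pak1 +/+ arrays were low, and the groups did not overlap. The means of 14.29 ± 0.08 and 8.69 ± 0.18 (SD, n = 2) differed by 5.60, or 48.4-fold. Tgtp2, the neighbouring gene and also a GTPase of that family, read 13.57 and 13.16 against 7.72 and 7.83 and rose by 5.59 ± 0.16 (limma adjusted p = 9.7e-05). Its near-identical copy Tgtp1 rose by 0.39, a call lost without Pak1 -/- replicate 1 or Pak1 +/+ replicate 2, and how the Tgtp probes divide their signal between the copies is uncertain. A second Tgtp2 probe, above background on 2 arrays, read 8.17 and 7.30 against 6.75 and 6.40, and the mean difference over the Tgtp2 probes was 3.37. On the other side of Ifi47, the odorant receptor genes Olfr1396 and Olfr1395 differed by -0.06 and -0.19 and did not pass.

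Ifi35 encodes a leucine zipper protein that pairs with NMI. Its probe at mm9 chr11:101319011-101319070 read 14.95 and 14.98 against 13.25 and 13.25. The replicates lay close together and the groups were 1.70 apart. The means of 14.96 ± 0.02 and 13.25 ± 0.0014 (SD, n = 2) differed by 1.71, or 3.28-fold, the narrowest difference of the 9 genes. Nmi, its partner, read 14.50 and 14.50 against 12.03 and 12.18 and rose by 2.39 ± 0.08 (limma adjusted p = 0.00015). Of the 6 neighbours of Ifi35 that were tested, 1 rose and 4 fell, beside 22.8% and 28.2% of all genes. The gene that rose, Ptges3l, and Rundc1, which was counted as lower, lost their calls under several alternatives, and without Pak1 +/+ replicate 1 Brca1 was the single neighbour of Ifi35 that passed. Brca1, the third gene from Ifi35 and a homologous recombination gene, fell by 1.09 ± 0.16 on the log2 scale, from 9.46 and 9.12 in Pak1 +/+ to 8.07 and 8.33 (limma adjusted p = 0.0051). Vat1 and Rnd2, which lie between them, differed by -0.72 and -0.62, and neither passed without Pak1 +/+ replicate 1.

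The list of 10 other interferon-inducible genes, which includes Nmi as already given, had 8 that were tested, of which 6 rose and none fell, with a median difference of 2.45 and with 22.8% of all genes higher and 28.2% lower. Over all 10, dim ones included, the median was 1.37. Ifih1, which encodes the RNA sensor MDA5, rose by 3.90 ± 0.11 (limma adjusted p = 0.00010), and its second probe was above background on the 2 knockout-labelled arrays alone. Ifi27l2a rose by 3.70 ± 0.31, with 12.65 and 11.90 against 8.30 and 8.84. The virus entry restriction gene Ifitm3 rose by 3.08 ± 0.08 (limma adjusted p = 8.5e-05), and Ifi27, a mitochondrial interferon-induced gene, by 2.51 ± 0.10. Ifitm2 and Ifi27l2b differed by -0.19 and -0.14 and did not pass. Ifi44l and Ifitm1 were too dim to test.

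PARP9 and DTX3L form a complex that attaches ubiquitin and ADP-ribose, and their genes lie next to each other on chromosome 16 with Parp14 nearby. The Parp9 probe (mm9 chr16:35972577-35972636, plus strand) read 15.07 and 14.95 under the knockout label and 12.01 and 12.09 in Pak1 +/+. The groups did not overlap and were 2.87 apart. The means of 15.01 ± 0.08 and 12.05 ± 0.06 (SD, n = 2) differed by 2.97, or 7.82-fold.

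The brighter Dtx3l probe (mm9 chr16:35926655-35926714, minus strand) read 14.81 and 14.62 against 11.72 and 11.92. The dimmer one (mm9 chr16:35932885-35932944) read 10.44 and 10.37 against 7.70 and 7.82. Both probes had their lowest knockout-labelled array well above their highest Pak1 +/+ array, and their differences were 2.90 (7.44-fold) and 2.65 (6.26-fold). The dimmer probe gave 2.97 without the offset and the brighter one 2.91.

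Parp14 encodes a mono-ADP-ribosyltransferase with macrodomains that acts with STAT6. Its probe at mm9 chr16:35832992-35833051 read 15.77 and 15.58 against 10.89 and 11.17. The groups were 4.42 apart, and the mean spot intensities before background correction were 50772 and 50608 against 1937 and 2202. The means of 15.68 ± 0.13 and 11.03 ± 0.20 (SD, n = 2) differed by 4.65, or 25.1-fold, the widest difference among the PARP genes. Around these 3 genes, 6 neighbours were tested and 0 passed by limma (1 at an unadjusted p under 0.05), beside 22.8% of all genes higher and 28.2% lower. Their differences ran from -0.16 for Gm5963 to 0.19 for Gm10237, which lies between Parp14 and Dtx3l. Both probes were very bright, Gm5963 at 17.41 and 17.43 against 17.58 and 17.58, Gm10237 at 16.97 and 16.94 against 16.73 and 16.80. Whether they read only these genes was not tested. With the arrays scaled to the 75th percentile Gm5963 was called lower, at -0.45 from the same background correction and -0.47 from the processed signal. Beside Parp9, the neighbours Kpna1, Wdr5b and Fam162a differed by -0.06, -0.12 and 0.01.

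Parp12, which encodes a mono-ADP-ribosyltransferase with zinc fingers of the kind that bind RNA, lies on chromosome 6. Its probe (mm9 chr6:39036828-39036887) read 12.75 and 12.69 under the knockout label and 9.39 and 9.40 in Pak1 +/+. Replicates were close and the groups were 3.29 apart. The means of 12.72 ± 0.04 and 9.39 ± 0.01 (SD, n = 2) differed by 3.33, or 10.1-fold. All 3 of its neighbours that were tested rose, beside 22.8% of all genes, and 2 of these calls were each lost without some array. Rab19, a small GTPase gene and the third from Parp12, read 12.76 and 12.75 against 10.94 and 10.99 and rose by 1.79 ± 0.07 (limma adjusted p = 0.00017). Kdm7a and Slc37a3, which lie between them, rose by 0.42 and 0.41. Kdm7a lost its call without Pak1 -/- replicate 1 or Pak1 +/+ replicate 2, and Slc37a3 without Pak1 +/+ replicate 1.

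**Figure D3:**
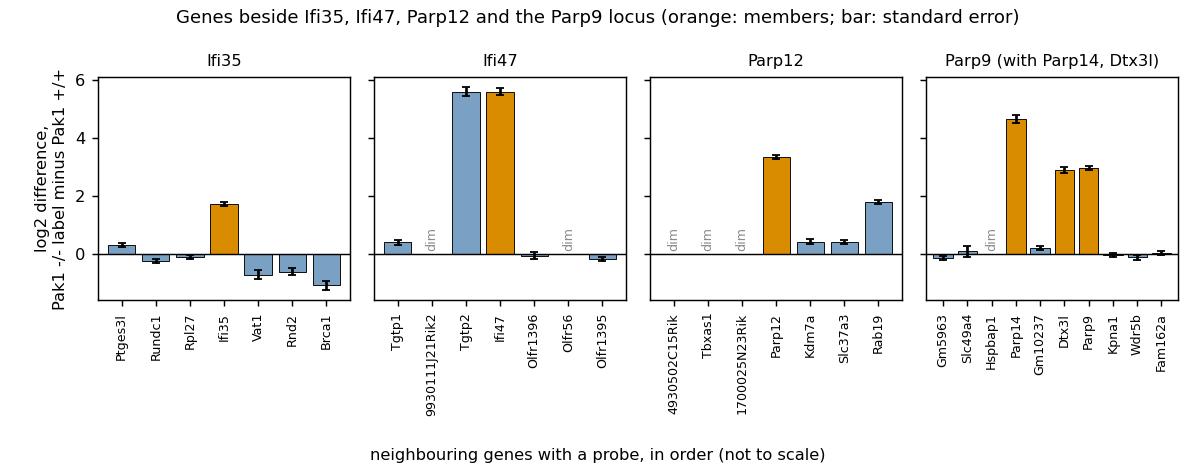
Log2 difference between the arrays labelled Pak1 -/- and Pak1 +/+ for genes in chromosomal order around Ifi35, Ifi47, Parp12 and the Parp14, Dtx3l and Parp9 genes, with standard errors; orange bars are the chosen genes, blue bars their nearest neighbours with a probe, and "dim" marks neighbours that could not be tested. The 6 tested neighbours on chromosome 16 stay between -0.16 and 0.19, Tgtp2 beside Ifi47 reaches 5.59 and Brca1 near Ifi35 lies at -1.09.

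Over all loci, 40 different neighbours were listed, 23 of them were tested, 9 rose and 4 fell, with a median difference of 0.01, beside 22.8% and 28.2% of all genes tested. Only 4 of these, Ifi202b, Tgtp2, Rab19 and Brca1, passed with at least a 2-fold change. Among the neighbours that rose, Ifi202b and Ifi208 are IFI200 genes already counted in that family. Tgtp1 and Tgtp2 belong to the GTPase family of Ifi47, so the number that rose is not a count of unrelated genes. Without Pak1 -/- replicate 1 the number that rose was 5, without Pak1 +/+ replicate 2 it was 5, without Pak1 +/+ replicate 1 it was 6, and the number that fell without Pak1 +/+ replicate 1 was 1.

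The PARP family had 16 genes on the array, the 3 described above and 13 others, all of which were tested. Of the 13 others 8 rose, 3 fell and 2 did not pass, with a median difference of 0.61, beside 22.8% of all genes higher and 28.2% lower. The family members that act at DNA breaks did not share 1 direction. Parp1, the main DNA break sensor of the family, read 11.35 and 11.40 against 11.98 and 11.85 and fell by 0.54 ± 0.08 on the log2 scale (limma adjusted p = 0.0057). Parp2, its closest relative, read 10.96 and 10.94 against 11.73 and 11.63 and fell by 0.73 ± 0.07 (limma adjusted p = 0.0019). For both genes the arrays labelled Pak1 -/- were lower without overlap. Parp3, which acts at double-strand breaks, went the other way, with 10.31 and 10.08 against 8.24 and 8.42, and rose by 1.86 ± 0.12 (limma adjusted p = 0.00058).

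Parp10, a mono-ADP-ribosyltransferase, read 16.45 and 16.31 against 13.87 and 14.09 and rose by 2.40 ± 0.11 (limma adjusted p = 0.00024), the most of the 13. Parp11, at means of 8.95 ± 0.06 and 7.49 ± 0.36 (SD, n = 2), rose by 1.46 ± 0.18 (limma adjusted p = 0.0035). Parp8 rose by 1.37 ± 0.08, and Parp4, Zc3hav1, Parp6 and Tnks by 0.89, 0.85, 0.61 and 0.56. With Pak1 +/+ replicate 1 left out, Tnks no longer passed (adjusted p = 0.053). A second Parp6 probe differed by 0.02 and did not pass, so the probes of that gene disagree. Tiparp, a mono-ADP-ribosyltransferase gene induced through the aryl hydrocarbon receptor, fell by 1.47 ± 0.16 on the log2 scale from 14.57 and 14.45 to 13.25 and 12.83 (limma adjusted p = 0.0023), and its second probe differed by -0.80. Parp16 and Tnks2 differed by 0.04 and 0.22 at their brightest probes and did not pass, while a second Tnks2 probe rose by 0.29 (limma adjusted p = 0.039). The mono-ADP-ribosyltransferase genes therefore lay at both ends of the family, from Parp14 at 4.65 to Tiparp at -1.47.

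**Figure D4:**
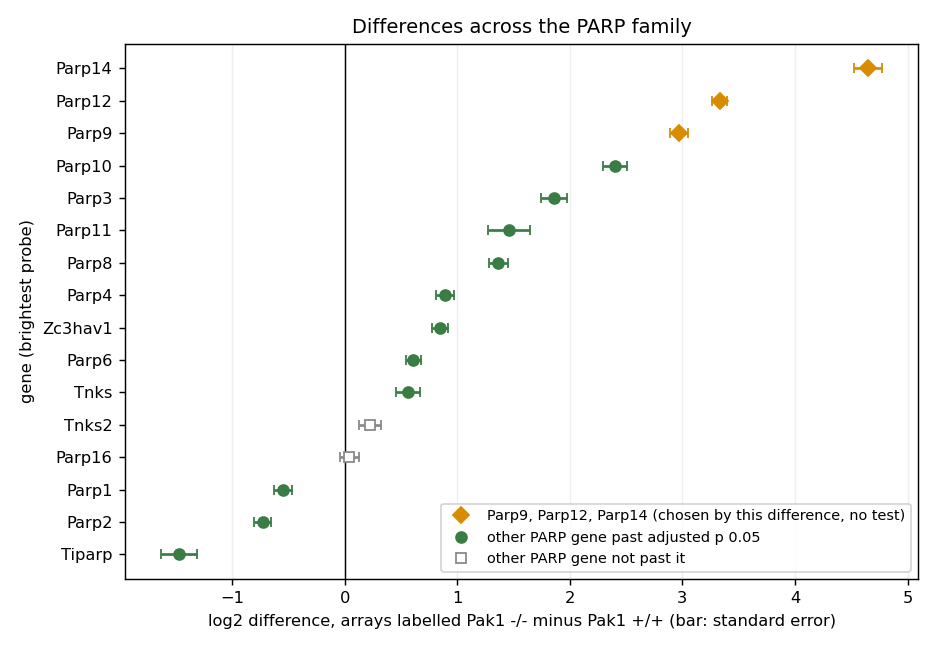
Log2 difference between the arrays labelled Pak1 -/- and Pak1 +/+ for the brightest probe of each of the 16 PARP genes, with standard errors; diamonds are Parp9, Parp12 and Parp14, filled circles other genes with an adjusted p under 0.05 and open squares genes that did not pass. Parp14 lies at 4.65, Parp12 at 3.33 and Parp9 at 2.97, while Parp1, Parp2 and Tiparp lie below 0.

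Further lists follow from Dtx3l and from ADP-ribose turnover. Of the other Deltex ligases 1 of 4 rose and none fell, with a median difference of 0.19, and of the 10 genes that remove or read ADP-ribose 2 rose and 1 fell, with a median of 0.10. Over all genes 22.8% were higher and 28.2% lower, so neither count is a result about its list. Under cyclic loess, and also at an unadjusted limma p under 0.05, the number higher was 2 of 4 and 4 of 10. Dtx1, a Notch pathway ligase, read 9.25 and 9.55 against 8.93 and 8.87 and rose by 0.50 ± 0.12 (limma adjusted p = 0.024), a call that was lost without Pak1 +/+ replicate 1 (adjusted p = 0.064) or Pak1 +/+ replicate 2 (0.085), which left a count of 0. Adprh, an ADP-ribosylarginine hydrolase, rose by 0.71 ± 0.10 and Parg, which degrades poly(ADP-ribose), by 0.54 ± 0.08. Macrod2, a mono-ADP-ribose hydrolase, differed by -0.36 ± 0.07 (limma adjusted p = 0.014), and without Pak1 +/+ replicate 1 or Pak1 +/+ replicate 2 its adjusted p was 0.069. The Macrod2 probes disagree. A further probe was also lower (-0.49, limma adjusted p = 0.020), another at 0.23 did not pass, and the mean over the probes was -0.21. Probes of Aplf, a DNA repair factor that binds poly(ADP-ribose), and of H2afy, the macroH2A1 histone gene, disagree as well. Their brightest probes, at 0.09 and 0.05, did not pass, while a second Aplf probe was lower (-0.39, limma adjusted p = 0.015) and a second H2afy probe higher (0.30, limma adjusted p = 0.019).

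All 4 transcription factors of interferon signalling that are reported here rose, with a median of 2.79, beside 22.8% of all genes tested. Irf7, the amplifier of type I interferon responses, rose by 6.09 ± 0.09 (limma adjusted p = 4.2e-05), with 14.30 and 14.26 against 8.10 and 8.28. Irf9 and Stat2, which act together at response elements, rose by 2.82 and 2.77. Irf1 rose by 1.18 ± 0.11 at its brightest probe, and its dim second probe differed by 0.30 and did not pass. These lists were drawn up with earlier results of these samples known, so they are not independent evidence of a direction. Where none of a list's genes fell, among the IFI200, interferon-induced, Deltex and transcription factor genes, 0 fell at an unadjusted limma p under 0.05 too.

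Ranked by difference, the 9 genes ran from Ifi44 (7.03 ± 0.18, SE) over Ifi47 (5.60 ± 0.11), Parp14 (4.65 ± 0.13) and Parp12 (3.33 ± 0.07) to Ifi203 (3.02 ± 0.08), Parp9 (2.97 ± 0.08) and Dtx3l (2.90 ± 0.11), and then to Ifi204 (1.79 ± 0.09) and Ifi35 (1.71 ± 0.07). Ifi203, Parp9 and Dtx3l were within about 1 standard error of each other, as were Ifi204 and Ifi35, so the order inside these groups is not fixed. Replicates were closer than any of these differences. The median distance between the replicates of a member probe was 0.11 under the knockout label and 0.13 in Pak1 +/+, and 0.11 and 0.08 over all probes tested. Of 13 other settings, 10 can change a value of these genes, and over those no difference turned and the lowest value was 1.65, for Ifi35. Leaving out 1 array cannot turn these differences, since the groups do not overlap. The settings show how far the values move and do not test a direction by which the genes were chosen.

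**Figure D5:**
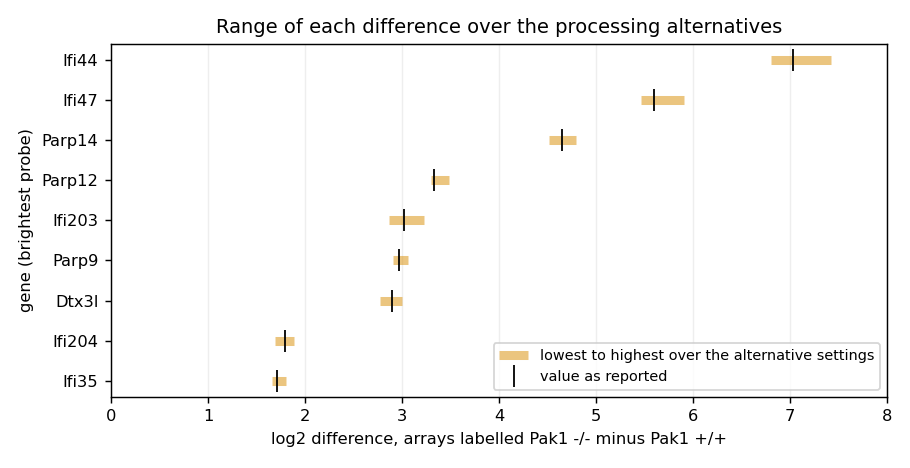
Log2 difference of each of the 9 genes as reported (black tick) and its lowest to highest value over 10 alternatives of background correction, scaling, left-out array, deposited values and probe averaging (orange bar). Ifi44 ran from 6.80 to 7.42, Ifi203 from 2.86 to 3.23 and Ifi35 from 1.65 to 1.81.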

How the data were processed

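Total RNA of 4 samples was hybridised to 1-colour Agilent mouse arrays with 60-base probes. The authors processed the array images with Agilent Feature Extraction 9.5 (9.5.3.1 per the file headers) and deposited intensity values per spot, and a table of normalised log2 values that the authors made and that served as an alternative here. Probe positions are those of the deposited files (mm9).

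From the deposited intensity of 39429 probes, background was corrected by normexp and arrays were quantile normalised, both named in the study's methods, with an offset of 50 chosen here, in limma 3.58.1 (R 4.3.3). Spots of a probe were averaged, and the 27229 probes that Feature Extraction marked as well above background in 2 or more of the 4 arrays were tested. The offset pulls differences of dim probes towards 0. Genotypes were compared by limma's moderated test with all 4 arrays and Benjamini-Hochberg adjustment over all probes tested, with a threshold of 0.05, checked on simulated data. A gene's value is that of its brightest probe. Genes tested number 22013. Samples of a group are separate tumours by the design text, and with 2 per group their number limits the precision. Arrays correlated at 0.997 within each group and at 0.954 to 0.959 between the groups. Other differences between the tumours or cell lines of the 2 groups cannot be told apart from genotype. From 62.2% to 70.4% of probes per array were above background.

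The genes, the related lists, the neighbours (the 3 nearest genes with a probe on each side in the GRCm38.p6 gene table) and the motifs were chosen with earlier results of these data known. The text names every chosen gene, Pak1 and Erbb2, Parp1 and Parp2, up to 5 genes of each related list with the largest difference past the threshold, and neighbours past it with at least a 2-fold change. Other genes named were chosen after their values were seen. Current symbols came from the GRCm38.p6 table for 26055 probes. No protein sequences were used here. An item of the transcription factor list is not reported here.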

Additional observations from a re-analysis of the deposited data

How the results depend on the processing

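None of the 9 genes' differences changed sign over 13 alternatives. These were no offset, other scalings, other filters, each array left out, a replicate block, the deposited values and the mean over probes. The filters and the block cannot change the 9 values, and leaving out 1 array cannot turn them, since the groups do not overlap. None of the 41 related, neighbouring or control genes with a call that were followed changed sign either. Under cyclic loess 7324 probes were called higher and 6647 lower, which turns the balance of calls to 52.4% higher from 44.9%, and 2 Deltex ligases and 4 ADP-ribose genes were called higher, against 1 and 2. With a 2-fold requirement 1889 probes were called higher and 1524 lower, in place of 6349 and 7783. Leaving out 1 array at a time gave 1 to 2 other IFI200 genes higher, 5 to 9 neighbours higher and 1 to 3 lower, 0 to 1 Deltex ligases higher and 0 to 1 ADP-ribose genes lower; 13 of the 41 genes lost their call without some array (Ifi208, Dtx1, Macrod2, Erbb2, Tnks, Ifi30, Ptges3l, Rundc1, Tgtp1, Kdm7a, Slc37a3, Vat1 and Rnd2), and the cause was not tested. With the processed signal Ptprc was at -0.82, Adgrl2 at 1.07 and Tgtp1 at 0.67, and over the mean of the probes Irf1 was at 0.74 and Parp6 at 0.31. Gm5963 and Rpl27 were called lower under both 75th percentile scalings, and Pak1 and Tnks2 higher under cyclic loess. Rundc1 also lost its call under settings that keep all arrays, the replicate block among them, and Ifi30 under the processed signal. The labels do not say whether samples with the same replicate number were handled together. The replicate differences of the groups correlated at -0.03, which does not decide it. With the replicate block 6021 probes were called higher and 7190 lower, and 2 of the 41 genes, Ptges3l and Rundc1, lost their call. The median difference of all probes was -0.05, -0.07 with normexp values scaled to the 75th percentile, -0.08 with the processed signal scaled so, and 0.00 under cyclic loess. Differences of dim probes, such as the Pak1 +/+ side of Ifi44 and Ifi203, are limited by signal over background, and with 2 arrays per group a spread rests on a single difference.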
